A study of Homo sapiens with 6 samples.

Results

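The enzymes that build purine and pyrimidine nucleotides from small precursors were followed in HK-2 cells, an established human line from the renal proximal tubule, kept in high glucose with or without TEPP-46. The 10 enzymes were taken by gene symbol from the deposited table of 29483 genes: *PPAT*, *GART*, *PFAS*, *PAICS*, *ADSL*, *ATIC*, *IMPDH1*, *IMPDH2*, *GMPS*, and *CAD*. All 10 were in the table and passed the filter on low values, as did 13599 genes in all. Every culture was exposed to 25 mM glucose (HG medium) for 7 days. The 3 control replicates received no TEPP-46, and the 3 case replicates received TEPP-46 at 10 μM for 1 day. TEPP-46 is a small molecule that activates PKM2, an isoform of pyruvate kinase, and the comparison asks which transcripts differ after this activation in cells that are already in high glucose. RNA was sequenced (total RNA per the labels, with no selection step given), and the deposited values are FPKM, the reads of a gene relative to its length and to the depth of its library. All FPKM values below were divided by 1 scaling factor per library (0.944 to 1.04). The replicates come from 1 cell line, and the study calls them independent and the labels give separate treatment, without saying whether they were grown as separate cultures, so that the *P*-values measure the spread between these libraries, which may be technical.

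HK-2 cells are used as a model of the proximal tubule, and the defining markers of that segment were near 0. None of the 10 listed proximal tubule markers in the table reached a mean FPKM of 0.5. Their summed FPKM was 0.518, 0.630, and 0.598 in control replicates 1, 2, and 3 and 0.50, 0.463, and 0.616 in case replicates 1, 2, and 3. *GGT1* was the most abundant of them with a mean FPKM of 0.162, and *LRP2* was listed at 0 in 5 of the 6 libraries. Of the 6 epithelial markers, *KRT19* was the most abundant with a mean FPKM of 345, whereas *CDH1* was low in both groups. The fibroblast markers found in the table summed to at most 0.398 FPKM in any library, the endothelial markers to at most 0.0938, and the blood cell markers to at most 0.0302.

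Purine synthesis starts from phosphoribosyl pyrophosphate (PRPP), an activated ribose that is made from the pentose phosphate pathway. PPAT commits PRPP to the pathway, and GART, PFAS, PAICS, ADSL, and ATIC then assemble the purine ring on it, with glycine, glutamine, aspartate, carbon dioxide, and formyl groups carried by folate as building blocks. The product, inosine monophosphate (IMP), is turned into GMP by IMPDH1 or IMPDH2 followed by GMPS, and into AMP by an adenylosuccinate synthetase followed by ADSL, which thus acts at separate points of the route. CAD is the multifunctional protein that opens pyrimidine synthesis. MYC is a known activator of many of these genes and binds the sequence CACGTG, which is called the E-box.

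The promoter windows of 8 of the 10 enzymes (all but *ADSL* and *IMPDH2*) were matched in the RefSeq table of GRCh38.p14, each running from 250 bases before to 50 bases after a start site. They are shown because the windows of *PPAT* and *PAICS* overlap and because *MYC* was among the regulators that rose (below). On chromosome 4, *PPAT* starts at 56435615 on the minus strand and *PAICS* at 56435752 on the plus strand, so that the start sites point away from each other across 137 bases. The other *PAICS* windows in the table, at other annotated starts, held no match to the letters below. The windows below are written 5′ to 3′ on the plus strand in lower case, and the letters CACGTG, which read the same on both strands, are in capitals.
*PAICS* with the *PPAT* start, chr4:56435502-56435801: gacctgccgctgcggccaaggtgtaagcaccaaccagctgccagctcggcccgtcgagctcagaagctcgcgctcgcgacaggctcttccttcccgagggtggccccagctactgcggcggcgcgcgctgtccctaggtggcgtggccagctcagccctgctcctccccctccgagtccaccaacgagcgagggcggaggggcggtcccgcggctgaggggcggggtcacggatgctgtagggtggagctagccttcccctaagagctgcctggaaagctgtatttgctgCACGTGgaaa
*ATIC*, chr2:215311809-215312108: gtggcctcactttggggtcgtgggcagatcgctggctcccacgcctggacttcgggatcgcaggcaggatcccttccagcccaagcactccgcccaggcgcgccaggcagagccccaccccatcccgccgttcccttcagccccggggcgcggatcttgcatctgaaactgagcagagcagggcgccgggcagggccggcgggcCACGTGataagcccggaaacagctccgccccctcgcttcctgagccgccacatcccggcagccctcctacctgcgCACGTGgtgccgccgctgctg
*CAD*, chr2:27217119-27217418: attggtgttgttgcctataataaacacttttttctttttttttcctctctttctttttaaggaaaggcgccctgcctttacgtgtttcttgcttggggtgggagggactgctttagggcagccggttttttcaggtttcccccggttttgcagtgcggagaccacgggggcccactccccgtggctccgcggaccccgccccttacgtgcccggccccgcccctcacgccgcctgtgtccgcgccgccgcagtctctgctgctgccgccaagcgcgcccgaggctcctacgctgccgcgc
The printed *PAICS* window, which also holds the *PPAT* start, had 1 match, 40 bases after the *PAICS* start and 182 bases before the *PPAT* start. The *ATIC* window held 2 matches, 46 bases before and 29 bases after the start. No match lay in the windows of *CAD*, *PFAS*, *GMPS*, *IMPDH1*, and *GART*, which says only that these letters are not in these windows. Of 35116 windows of the same length in the RefSeq table, 7.26% held the letters, and of 27305 genes, 8.77% had at least 1 such window. A match is a description of the sequence, and binding was not measured.

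In the control group the mean levels of the 10 transcripts ran from 78.3 to 6.48 FPKM. *IMPDH2* stood highest with 78.3 ± 3.35 FPKM (SD, n = 3), followed by *ATIC* with 50.7 ± 1.67 and *IMPDH1* with 43.5 ± 1.71. *PAICS*, *GART*, and *CAD* lay close together with 30.5, 28.9, and 28.9 FPKM, and the ranges of neighbours in this order overlapped. *PFAS* (23.3), *GMPS* (17.6), and *ADSL* (15.9) followed, where the ranges of *GMPS* and *ADSL* overlapped. *PPAT*, the committing enzyme, was lowest with 6.48 ± 0.481 FPKM (SD, n = 3), and its range lay apart from that of *ADSL*. In the case group *PFAS* stood lower in the order, below *GMPS* and *ADSL*, and *CAD* kept its place. There *CAD* (22.4), *GMPS* (20.6), *ADSL* (20.1), and *PFAS* (18.9) were neighbours with overlapping ranges, and *PPAT* was again the lowest with 5.72 ± 0.407 FPKM (SD, n = 3). FPKM are per length, which is why these levels are set side by side between genes. The comparison is approximate, because the case libraries also moved with transcript length and GC content (below). Reads of some of these genes may also not be told apart from those of overlapping genes.

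**Figure D1:**
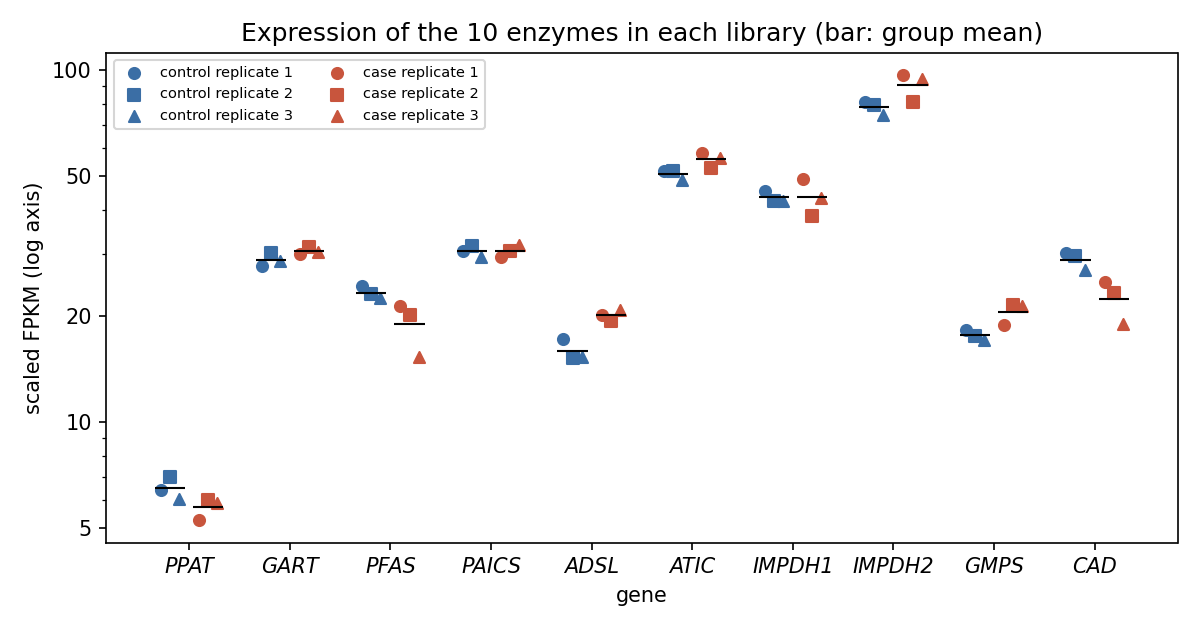
Scaled FPKM (log axis) of the 10 enzymes in each of the 3 control (blue) and 3 case (red) libraries, with a marker shape per replicate and a black bar at each group mean. *ADSL* lies higher in all case libraries (19.3 to 20.8) than in all control libraries (15.2 to 17.2), and *CAD* lies lower in the case libraries, with case replicate 3 lowest.

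After TEPP-46, *ADSL* was the 1 enzyme of the 10 that rose past the threshold, and none fell past it, while *CAD* and *PFAS* had the most negative log2 fold changes without passing. The threshold was a Benjamini-Hochberg adjusted *P*-value of at most 0.05 in limma over the 13599 tested genes, where 1792 genes (13.2%) passed, 998 (7.34%) of them higher and 794 (5.84%) lower in the case group. An unadjusted p under 0.05 in limma was found for 5 of the 10 enzymes (*ADSL*, *GMPS*, *IMPDH2*, *PFAS*, and *CAD*) and for 4495 of the 13599 tested genes. The libraries of the groups did not overlap for 7 of the 10 enzymes, 4 higher and 3 lower in the case group, against 39.9% of all tested genes. The median log2 fold change (case minus control) was 0.04 over the 10 enzymes and -0.00 over all tested genes. From bulk RNA, fewer cells with a transcript and less of it per cell cannot be told apart.

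The entry of the purine route gave a lower value that did not pass the test. *PPAT* (ENSG00000128059, chromosome 4, 56393362 to 56435615) had 6.41, 7.00, and 6.04 FPKM in control replicates 1, 2, and 3, and 5.26, 6.02, and 5.89 FPKM in case replicates 1, 2, and 3. All case libraries lay below all control libraries, though control replicate 3 and case replicate 2 nearly met, and case replicate 1 was lowest. Its log2 fold change was -0.18 (SE 0.10, 95% interval -0.40 to 0.05, adjusted *P*-value 0.245, limma), and 451 to 705 reads per library lay behind it. This was the fewest reads of the 10 enzymes.

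*PAICS* (ENSG00000128050, chromosome 4, 56435741 to 56464578), which joins carbon dioxide and aspartate to the growing ring, starts next to *PPAT* in the window printed above. Its FPKM was 30.7, 31.6, and 29.4 in the control libraries and 29.4, 30.6, and 31.8 in the case libraries. The groups overlapped throughout, and the log2 fold change was 0.00 (SE 0.07, 95% interval -0.17 to 0.17, adjusted *P*-value 0.994, limma). The ratio of *PAICS* to *PPAT* was 4.78, 4.52, and 4.86 in the control libraries and 5.59, 5.08, and 5.39 in the case libraries. The groups did not overlap in this ratio, which was not tested.

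*GART* (ENSG00000159131, chromosome 21, 33503931 to 33543491) encodes a protein with several activities, among them the folate-dependent step that follows the addition of glycine. It had 27.8, 30.3, and 28.7 FPKM in the control libraries and 30.1, 31.5, and 30.4 in the case libraries. The groups overlapped, with a log2 fold change of 0.08 (SE 0.07, 95% interval -0.09 to 0.25, adjusted *P*-value 0.460, limma). *GART* overlaps *SON* on the opposite strand (mean FPKM 13.6), and the sources used here do not state whether strand was used in counting, so that reads of the pair may not be told apart.

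*PFAS* (ENSG00000178921, chromosome 17, 8247618 to 8270491), which brings in nitrogen from glutamine, was lower in every case library without passing the threshold. Its FPKM was 24.3, 23.0, and 22.5 in the control libraries and 21.3, 20.1, and 15.3 in the case libraries. The groups did not overlap, and case replicate 3 stood well below the other case libraries. The log2 fold change was -0.31 (SE 0.13, 95% interval -0.60 to -0.02, adjusted *P*-value 0.129, limma). Without case replicate 3 it was -0.17. *PFAS* overlaps *CTC1* on the opposite strand (mean FPKM 1.54).

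*ADSL* (ENSG00000239900, chromosome 22, 40346461 to 40390463), which releases fumarate both in ring assembly and in the last step to AMP, had 17.2, 15.2, and 15.3 FPKM in the control libraries. In the case libraries it had 20.2, 19.3, and 20.8 FPKM. The lowest case library lay above the highest control library, and all case libraries were near each other. The log2 fold change was 0.34 (SE 0.08, 95% interval 0.15 to 0.53), a 1.26-fold higher level (interval 1.11 to 1.44), with an adjusted *P*-value of 0.0374 in limma. The reads per library ranged from 1960 to 2342. The direction was the same under every alternative, whereas the call was lost without any 1 of the control replicates (adjusted *P*-value 0.0925, 0.165, and 0.145 in limma without control replicates 1, 2, and 3) and without case replicate 3 (0.111). *ADSL* overlaps *SGSM3* on the same strand (mean FPKM 8.36), and the counting of reads in the shared part is not stated in the sources used here.

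*ATIC* (ENSG00000138363, chromosome 2, 215311956 to 215349773) closes the ring with the last formyl group and gives IMP. It had 51.8, 51.6, and 48.8 FPKM in the control libraries and 58.2, 52.6, and 56.3 in the case libraries. The case libraries lay just above the control libraries, case replicate 2 the nearest to them. The log2 fold change of 0.13 (SE 0.08, 95% interval -0.04 to 0.31, adjusted *P*-value 0.247, limma) did not pass the threshold. Summed over the 6 enzymes up to IMP, the FPKM was 158, 159, and 151 in the control libraries and 164, 160, and 161 in the case libraries.

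Between IMP and GMP, the IMP dehydrogenases differed from each other in level and in their share. *IMPDH2* (ENSG00000178035, chromosome 3, 49024325 to 49029447), the isoform that is known to rise in proliferating cells, had 81.0, 79.5, and 74.6 FPKM in the control libraries and 96.7, 81.3, and 94.5 in the case libraries. Case replicates 1 and 3 were well above the control libraries, and case replicate 2 was close to them. Its log2 fold change was 0.21 (SE 0.09, 95% interval 0.005 to 0.42, adjusted *P*-value 0.144, limma). *IMPDH1* (ENSG00000106348, chromosome 7, 128392277 to 128409986), the isoform regarded as more constant between tissues, had 45.5, 42.5, and 42.5 FPKM in the control libraries and 49.0, 38.4, and 43.2 in the case libraries. The case libraries enclosed the control libraries on both sides, and the log2 fold change was -0.00 (SE 0.10, 95% interval -0.24 to 0.23, adjusted *P*-value 0.978, limma). *IMPDH2* took 64.0%, 65.2%, and 63.7% of the summed FPKM of the pair in the control libraries and 66.4%, 67.9%, and 68.6% in the case libraries. The share did not overlap between the groups, with means of 64.3% ± 0.782 and 67.6% ± 1.17 (SD, n = 3), and an exact two-sided permutation test of 3 against 3 cannot go below p = 0.1. The log2 fold change of *IMPDH2* exceeded that of *IMPDH1* by 0.21, and by 0.04 with the correction for GC content and length described below. *IMPDH1* has several processed pseudogenes, and those in the table had at most 0.158 FPKM.

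*GMPS* (ENSG00000163655, chromosome 3, 155870650 to 155944020), which adds the amino group of GMP, had 18.2, 17.6, and 17.1 FPKM in the control libraries and 18.9, 21.5, and 21.4 in the case libraries. Case replicates 2 and 3 stood above all others, and case replicate 1 lay just above the highest control library. The log2 fold change was 0.22 (SE 0.08, 95% interval 0.03 to 0.41, adjusted *P*-value 0.110, limma). *GMPS* has the longest canonical transcript of the 10 enzymes (8631 bases).

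*CAD* (ENSG00000084774, chromosome 2, 27217369 to 27243943), the entry to pyrimidine synthesis, had the most negative log2 fold change of the 10 enzymes. Its FPKM was 30.1, 29.6, and 27.0 in the control libraries and 25.0, 23.2, and 19.0 in the case libraries. All case libraries lay below all control libraries, and case replicate 3 was the lowest. The log2 fold change was -0.37 (SE 0.11, 95% interval -0.63 to -0.12), which is 0.772 times the control level, with an adjusted *P*-value of 0.0621 in limma that did not pass the threshold. Voom on the whole reads recovered from the FPKM values gave -0.37 with an adjusted *P*-value of 0.0251, so that the call depended on the test. The reads per library ranged from 2421 to 4860.

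**Figure D2:**
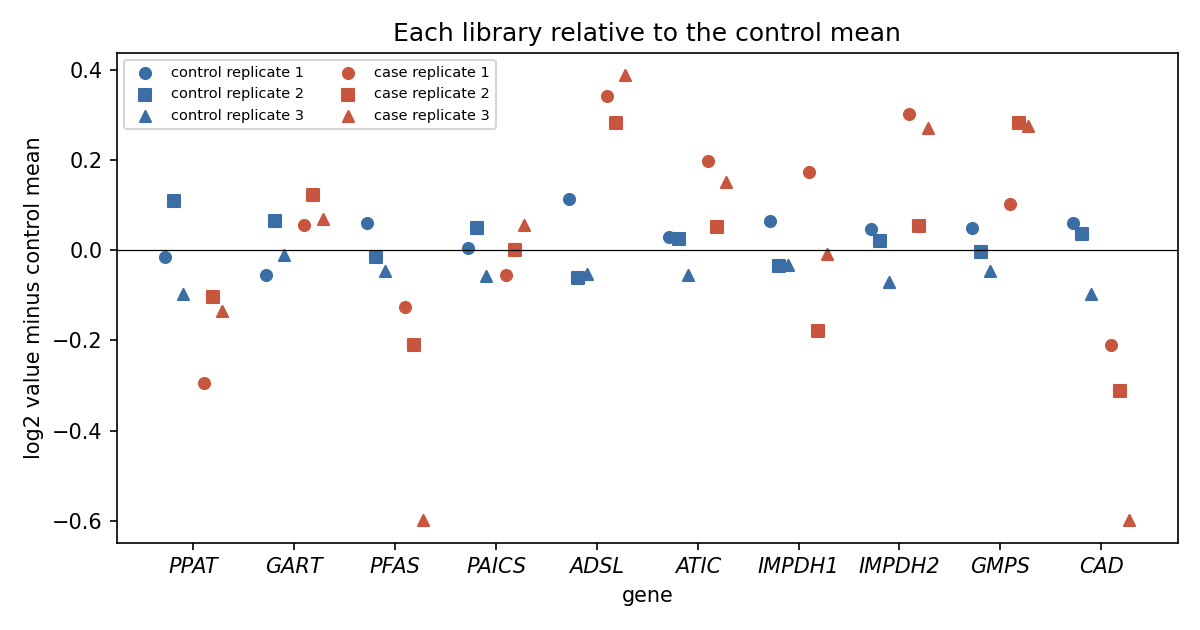
Log2 value of each enzyme in each library minus its control mean, with control libraries in blue, case libraries in red and a marker shape per replicate. Case replicate 3 is lowest for *PFAS* (-0.60) and *CAD* (-0.60), case replicate 1 is lowest for *PPAT* (-0.29), and the case libraries of *ADSL* lie between 0.28 and 0.39.

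The case libraries did not shift the 10 enzymes by the same amount. For *CAD* the difference from the control mean was -0.21, -0.31, and -0.60 in case replicates 1, 2, and 3 on the log2 scale, and for *PFAS* it was -0.12, -0.21, and -0.60. For *ATIC* it was 0.20, 0.05, and 0.15, and for *IMPDH2* it was 0.30, 0.05, and 0.27. Across the 6 libraries the log2 values of *PFAS* and *CAD* had a Pearson r of 0.97, those of *ATIC* and *IMPDH2* 0.99, and those of *GMPS* and *CAD* -0.83 (n = 6 each). *PPAT* and *PAICS*, whose promoter windows overlap, had an r of 0.60 (n = 6). These values describe the same 6 libraries, share their depth and group difference, and were not tested. The spread between replicates was larger in the case group, with a median SD over tested genes of 0.19 on the log2 scale against 0.09 in the control group.

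**Figure D3:**
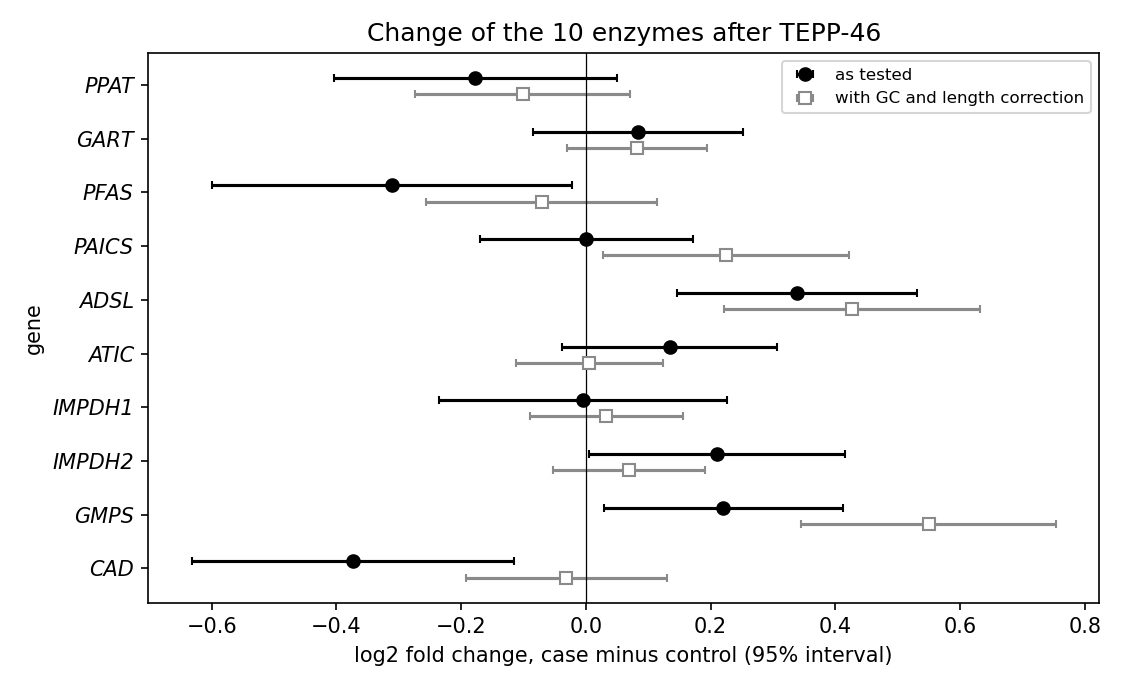
Log2 fold change (case minus control) with its 95% interval for the 10 enzymes as tested (black circles) and after a correction of each library for GC content and transcript length (open squares). *CAD* moves from -0.37 to -0.03 and *GMPS* from 0.22 to 0.55 with the correction, while *ADSL* stays above 0 in both (0.34 and 0.43).

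The log2 fold changes moved with transcript length across all tested genes, and the enzymes differ in length. In 5 quintiles of the tested genes by the length of the canonical transcript, the median log2 fold change was 0.20, 0.13, 0.03, -0.10, and -0.27 from the shortest to the longest quintile. In the longest quintile the median differences from the control mean were -0.40, -0.10, and -0.29 in case replicates 1, 2, and 3. *CAD* (7286 bases) and *PFAS* (5369 bases) belong to the longest quintile, *IMPDH2* (1651 bases) and *ATIC* (1972 bases) to the second shortest, and *PAICS* (6371 bases) and *GMPS* (8631 bases) lie in the longest quintile at 0.00 and 0.22. The case libraries also moved with GC content, not all in the same direction. From the quintile of lowest to that of highest GC content, the median difference from the control mean was -0.28, -0.07, 0.05, 0.13, and 0.17 in case replicate 1. It was 0.04, 0.07, 0.04, -0.04, and -0.12 in case replicate 2 and -0.00, 0.07, 0.04, -0.01, and -0.07 in case replicate 3. *PPAT*, with the lowest GC content of the enzymes (37.9%), was lowest in case replicate 1.

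A correction of each library for GC content and length, chosen after the data had been seen, changed which enzymes passed. With it, 2559 of 13489 genes (19.0%) passed, 1672 of them higher and 887 lower. *ADSL* had a log2 fold change of 0.43 (95% interval 0.22 to 0.63, adjusted *P*-value 0.0183, limma) and *GMPS* of 0.55 (95% interval 0.35 to 0.75, adjusted *P*-value 0.00834, limma), and both passed. *CAD* had -0.03 (95% interval -0.19 to 0.13, adjusted *P*-value 0.778, limma), *PFAS* -0.07 (95% interval -0.26 to 0.11, adjusted *P*-value 0.556, limma), and *PAICS* 0.23 (95% interval 0.03 to 0.42, adjusted *P*-value 0.102, limma). *IMPDH2* had 0.07 and *ATIC* 0.01. The part of length and GC content in the values of these enzymes was not tested beyond this correction.

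**Figure D4:**
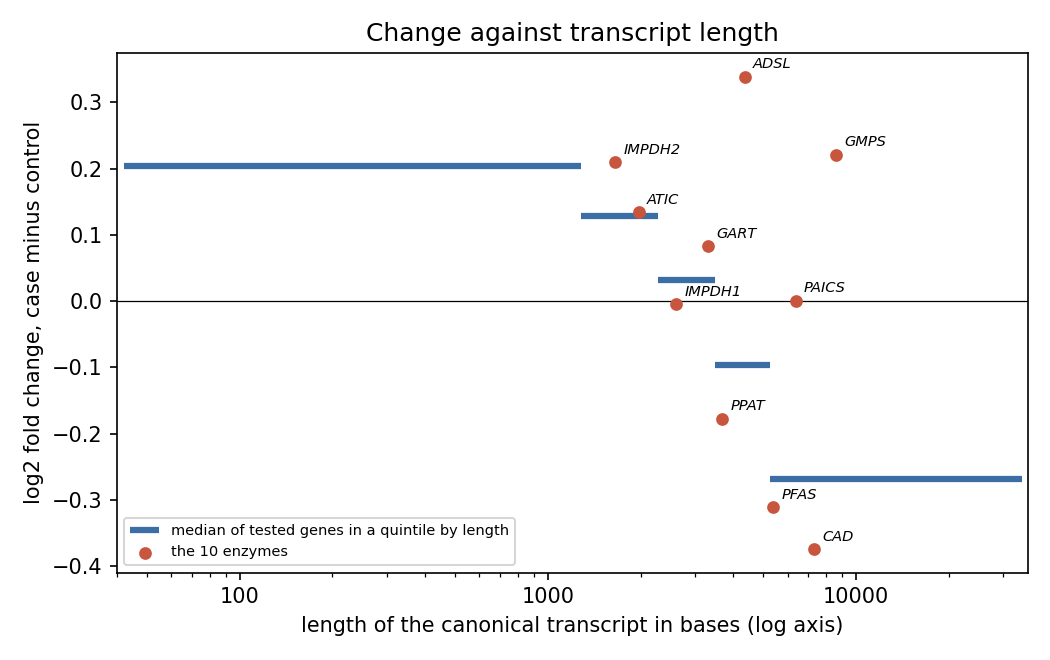
Log2 fold change (case minus control) against the length of the canonical transcript in bases (log axis), with the median of all tested genes in each quintile by length (blue bars) and the 10 enzymes (red points). The blue medians run from 0.20 to -0.27, *CAD* and *PFAS* lie below the bar of the longest quintile, and *GMPS*, *PAICS*, and *ADSL* lie above the bars at their lengths.

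The scaling of the libraries also bore on the direction. With FPKM left unscaled the median of all tested genes was -0.08 and that of the 10 enzymes -0.03, with 662 genes higher and 1124 lower. With every library set to the same sum (TPM) these medians were -0.20 and -0.16, with 381 genes higher and 2383 lower, and after quantile normalization they were -0.01 and -0.06, with 866 higher and 903 lower. *ADSL* had 0.26, 0.14, and 0.28 under these scalings and did not pass (adjusted *P*-value 0.0657, 0.243, and 0.0531 in limma). *CAD* had -0.45, -0.57, and -0.46 and passed in each (adjusted *P*-value 0.0328, 0.0169, and 0.0313 in limma). *PFAS* passed with TPM (-0.51, adjusted *P*-value 0.0305, limma). The directions of *ADSL*, *IMPDH1*, *IMPDH2*, *GMPS*, *CAD*, *PFAS*, and *PPAT* were the same under the 3 scalings, whereas *GART*, *PAICS*, and *ATIC* changed sign under at least 1 of them.

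The neighbouring routes were counted in the same fit, from lists written with earlier results of these data known. The calls in each list are read against the 13.2% of all tested genes that passed, 7.34% higher and 5.84% lower. Counts at an unadjusted p under 0.05 in limma are read against 4495 of the 13599 tested genes. Over all genes, TPM called 381 higher and 2383 lower of 13599. Voom called 1292 higher and 1505 lower of 13575, and the correction for GC content and length called 1672 higher and 887 lower of 13489. Of the 6 remaining enzymes of de novo synthesis, none passed in limma in either direction (2 at an unadjusted p under 0.05, and 0 with voom), and their median log2 fold change was -0.10. With TPM *ADSS1* and *DHODH* passed as lower, and with the correction for GC content and length *UMPS* passed as higher. *DHODH*, which oxidises dihydroorotate after CAD, had -0.30 (adjusted *P*-value 0.0985, limma), and *UMPS*, which completes UMP, had 0.24 (adjusted *P*-value 0.112, limma). *ADSS2*, the main adenylosuccinate synthetase here, was the most abundant of the list with 17.5 FPKM in the control and 15.0 in the case group. *CTPS1* made up 85.2% ± 1.78 of the summed FPKM of *CTPS1* and *CTPS2* in the control libraries and 85.3% ± 1.63 in the case libraries (SD, n = 3), and the groups overlapped.

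PRPP, the substrate of PPAT, is made by the PRPP synthetases. *PRPS2* fell, from 11.1, 11.8, and 11.2 FPKM in the control libraries to 8.21, 9.28, and 9.26 in the case libraries, a log2 fold change of -0.35 (SE 0.09, adjusted *P*-value 0.0382, limma). No case library reached the lowest control library. *PRPS1*, the more abundant form, had 41.3 FPKM in the control and 40.6 in the case group, and its share of the pair was 78.4% ± 0.444 and 81.9% ± 2.34 (SD, n = 3), without overlap. *PRPS2* was the 1 gene of 4 tested in this list that passed, and voom also called *PRPSAP2*, which encodes a protein bound to the synthetases, higher. *PRPS2* did not pass without control replicates 1, 2, or 3 (adjusted *P*-value 0.124, 0.162, and 0.124 in limma) or without case replicate 3 (0.0854 in limma).

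In salvage, the route that recovers bases and nucleosides without new ring synthesis, 4 of 16 tested genes rose and none fell. Of all tested genes 7.34% were called higher and 5.84% lower. The median log2 fold change of the list was 0.18 (-0.02 with TPM, where all genes had -0.20). The count of salvage calls fell to 1, 0, and 0 without control replicates 1, 2, and 3 and to 1 without case replicate 3. In salvage 7 genes had an unadjusted p under 0.05 in limma (4495 of 13599 over all tested genes), and voom called none lower (1505 of 13575 over all). *CDA*, the cytidine deaminase, did not pass here but was called lower with TPM, after quantile normalization and with the correction for GC content and length. *UPP1*, which splits uridine into uracil and ribose phosphate, had 153, 150, and 140 FPKM in the control libraries and 279, 225, and 268 in the case libraries. The case libraries were far above the control libraries, and the log2 fold change was 0.80 (SE 0.10, adjusted *P*-value 0.00759, limma). *PNP*, the purine counterpart of *UPP1*, rose by 0.37, *APRT*, which joins adenine to PRPP, by 0.35, and *UCK2*, a uridine and cytidine kinase, by 0.30 on the log2 scale (adjusted *P*-value 0.0440, 0.0479, and 0.0480 in limma). *HPRT1*, which joins hypoxanthine or guanine to PRPP, had 36.0 FPKM in the control and 42.0 in the case group (adjusted *P*-value 0.0797, limma), and *TK1*, the most abundant salvage gene, had 268 and 291 FPKM with overlapping groups. *UPP1* passed under all 3 other scalings, whereas *PNP*, *APRT*, and *UCK2* passed under none of them. Nor did *PNP*, *APRT*, or *UCK2* pass without any 1 control replicate or without case replicate 3 (adjusted *P*-value 0.0987 to 0.175 in limma). With the correction for GC content and length *PNP* had 0.19 and *APRT* 0.20 and did not pass (adjusted *P*-value 0.0999 and 0.0542 in limma). *UCK2* had 0.46 and *UPP1* 0.67 with it, and both passed (0.00368 and 0.00147 in limma). Without control replicates 2 and 3, *UPP1* had 0.80 and 0.76 and narrowly missed the threshold (adjusted *P*-value 0.0525 and 0.0514 in limma).

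Downstream of the monophosphates, the calls are read against the 13.2% of all tested genes that passed. Of the 13599 tested genes, 4495 had an unadjusted p under 0.05 in limma. Of 12 tested nucleotide kinases none passed in limma as tested (0 at an unadjusted p under 0.05, and 0 with voom). *GUK1*, the GMP kinase, was the most abundant with 54.6 FPKM in the control and 60.4 in the case group. *NME1* had the largest log2 fold change of that list (0.47, adjusted *P*-value 0.175, limma), and passed with the replicate block and without case replicate 2. Of 12 tested breakdown and interconversion genes, *NT5C3A*, a pyrimidine nucleotidase, rose by 0.31 (adjusted *P*-value 0.0421, limma), while *NT5C3B*, the most abundant, had 43.8 and 54.2 FPKM (adjusted *P*-value 0.138, limma). *NT5C3A* had 0.23 unscaled and 0.11 with TPM and passed in neither (adjusted *P*-value 0.106 and 0.413 in limma), nor without any 1 control library or case replicate 3. Voom called 1 gene of that list higher and 2 lower, and 1292 higher and 1505 lower of 13575 genes in all. In deoxynucleotide synthesis, *SAMHD1*, which degrades deoxynucleoside triphosphates, fell by 0.36 on the log2 scale (adjusted *P*-value 0.0469, limma), and it was the 1 of 10 tested genes that passed, with 7 at an unadjusted p under 0.05. It did not pass without any 1 control library or case replicate 3. With voom *SAMHD1* did not pass (adjusted *P*-value 0.0535), and *RRM1*, *RRM2*, and *DUT* passed as higher. Of the ribonucleotide reductase genes, 2 had adjusted *P*-values just above the threshold in limma, *RRM2* with 49.8 FPKM in the control and 59.7 in the case group (adjusted *P*-value 0.0560, limma) and *RRM1* with 25.6 and 30.9 (adjusted *P*-value 0.0572, limma), while *RRM2B* had a log2 fold change of -0.15 (adjusted *P*-value 0.534, limma). *RRM2* made up 89.3% ± 0.588 of the summed FPKM of *RRM2* and *RRM2B* in the control libraries and 91.6% ± 1.38 in the case libraries (SD, n = 3), without overlap. *DTYMK*, the thymidylate kinase, was the most abundant gene of that list with a mean of 90.6 FPKM.

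Most calls among the routes that feed ring synthesis were in 1 list. In the serine and folate route, which supplies glycine and formyl groups, 5 of 11 tested genes rose and none fell. Of all tested genes 7.34% were called higher and 5.84% lower. The list had a median log2 fold change of 0.38 against 0.04 in the 10 enzymes. This difference between lists was not tested. In that list 7 genes had an unadjusted p under 0.05 in limma (4495 of 13599 over all tested genes), and *MTHFD1* was called lower with voom. After quantile normalization the median of the list was 0.16, and *PSAT1*, with 0.16, did not pass (adjusted *P*-value 0.155, limma). *MTHFD1L* had 0.20 with TPM and did not pass there (adjusted *P*-value 0.107, limma). The count of calls fell to 1, 0, and 1 without control replicates 1, 2, and 3 and to 2 without case replicate 3. *MTHFD2*, a mitochondrial folate enzyme, had 54.1, 52.5, and 51.8 FPKM in the control libraries and 80.1, 82.0, and 78.6 in the case libraries, a log2 fold change of 0.60 (adjusted *P*-value 0.00547, limma). *PSPH*, *PSAT1*, and *PHGDH*, the enzymes of serine synthesis, rose by 0.58, 0.50, and 0.43, and *MTHFD1L* by 0.39 on the log2 scale. *MTHFD1*, whose product serves GART and ATIC with formyl folate in the cytosol, had 22.0 FPKM in the control and 18.4 in the case group (adjusted *P*-value 0.0686, limma). Besides voom, it passed as lower unscaled, with TPM, after quantile normalization and with the correction for GC content and length. Of 7 tested pentose phosphate genes, *TALDO1* rose by 0.39 (adjusted *P*-value 0.0481, limma). It had 0.32 unscaled, 0.19 with TPM and 0.16 after quantile normalization and passed in none of these (adjusted *P*-value 0.0511, 0.0988, and 0.0967 in limma), nor when any 1 library other than case replicate 2 was left out. With the correction for GC content and length *TALDO1* had 0.21 and passed (adjusted *P*-value 0.0380, limma), and with the replicate block it did not pass (0.0512 in limma). In the same list *PGD*, the most abundant, had 172 and 196 FPKM (adjusted *P*-value 0.151, limma).

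**Figure D5:**
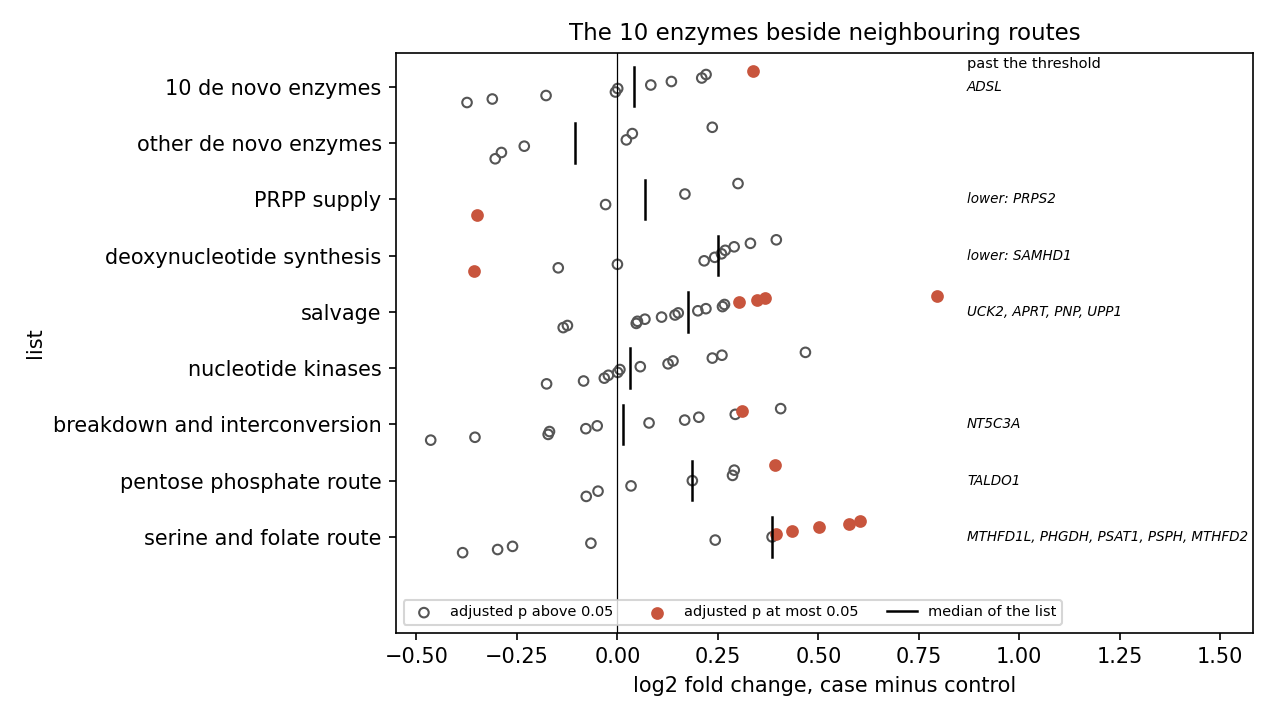
Log2 fold change (case minus control) of each tested gene in the 10 de novo enzymes and 8 neighbouring lists, with filled points for genes past the threshold (named at the right), open points for the others and a bar at the median of each list. The bar of the 10 enzymes lies at 0.04 with *ADSL* the 1 filled point, and that of the serine and folate route lies at 0.38 with 5 filled points.

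Among 9 tested regulators of these enzymes, 2 rose and 2 fell, where 13.2% of all tested genes passed. With TPM 1 was called higher and 3 lower, where 381 of 13599 genes were higher and 2383 lower. With the correction for GC content and length 3 were called higher (*MYC*, *ATF4*, and *TFE3*) and 0 lower. There 1672 of 13489 genes were higher and 887 lower. *MYC* had 51.2, 47.3, and 51.3 FPKM in the control libraries and 77.2, 62.6, and 66.3 in the case libraries, and rose by 0.45 (SE 0.10, adjusted *P*-value 0.0245, limma). *ATF4*, an activator of serine and folate genes, rose by 0.35 (adjusted *P*-value 0.0296, limma), but had 0.15 with TPM and 0.11 after quantile normalization and did not pass there (adjusted *P*-value 0.0776 and 0.139 in limma). *MTOR*, whose complex acts on CAD through S6 kinase, and *RPTOR*, a subunit of that complex, fell by 0.56 and by 0.48 on the log2 scale (adjusted *P*-value 0.0204 and 0.0312 in limma). The canonical transcripts of *MTOR* and *RPTOR* are 8721 and 6838 bases long, and with the correction for GC content and length their values were -0.19 and -0.15 and no longer passed. Of the 8 enzymes with a matched window, 3 held CACGTG (*ATIC*, *PAICS*, and *PPAT*, the latter pair sharing its match). None of these passed the threshold, where 13.2% of all tested genes passed. *ADSL*, the enzyme that passed, had no matched window, and an action of MYC on these genes was not tested.

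The list called S phase genes here also held the proliferation markers *MKI67* and *TOP2A*, which do not mark S phase alone. Of its 14 tested genes none rose and 2 fell, with a median log2 fold change of 0.00. These counts are read against 7.34% called higher and 5.84% lower over all tested genes. With TPM 0 were called higher and 5 lower, where 381 of 13599 genes were higher and 2383 lower. With the correction for GC content and length 2 were called higher and 3 lower, where 1672 of 13489 genes were higher and 887 lower. *MKI67* had 30.1, 34.2, and 31.8 FPKM in the control libraries and 14.4, 23.7, and 17.6 in the case libraries (log2 fold change -0.81, SE 0.17, adjusted *P*-value 0.0231, limma), and *UHRF1* fell by 0.36 (adjusted *P*-value 0.0204, limma). The canonical transcript of *MKI67* is 12716 bases long, and with the correction for GC content and length *MKI67* had -0.34 and *UHRF1* -0.25, and both still passed (adjusted *P*-value 0.0267 and 0.0123 in limma). In this list 8 genes had an unadjusted p under 0.05 in limma (4495 of 13599 over all tested genes). Voom called 1 gene of it higher and 3 lower, and 1292 higher and 1505 lower of 13575 genes in all. *PCNA*, the most abundant, had 116 FPKM in the control and 125 in the case group with an adjusted *P*-value of 0.314 in limma. The part of cell cycling in the values of the 10 enzymes was not tested. Of the 6 tested epithelial markers, 3 had positive and 3 negative values with a median log2 fold change of -0.06. After quantile normalization the median was -0.32 with 3 markers called lower, and 2 were called lower unscaled, with TPM and with the correction for GC content and length. Over all tested genes 903 were called lower after quantile normalization, 1124 unscaled, 2383 with TPM and 887 with the correction. *CDH1*, which was low in both groups, was the 1 that passed as tested and fell by 0.64 on the log2 scale (adjusted *P*-value 0.0156, limma).

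Averaged over the 10 enzymes, the centred log2 values were 0.03, 0.01, and -0.06 in the control libraries and 0.04, -0.01, and -0.02 in the case libraries, so that the groups overlapped. The 5 tested genes most like this profile were ENSG00000279259 (Pearson r 0.996 over 6 libraries), *CENPBD2P* (0.966), *OSCP1* (0.965), *SAA1* (0.964), and *RFX2* (0.963). None of these passed the threshold, and most were of low level, with mean FPKM of 1.00, 5.72, 0.756, 1.00, and 2.24. The summed FPKM of the 10 enzymes was 333, 328, and 312 in the control libraries and 354, 324, and 339 in the case libraries. *CAD* alone gave 30.1, 29.6, and 27.0 FPKM of these sums in the control libraries and 25.0, 23.2, and 19.0 in the case libraries, while the enzymes from IMP to GMP gave 145, 140, and 134 in the control libraries and 165, 141, and 159 in the case libraries.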

How the data were processed

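RNA of 3 control and 3 case replicates of HK-2 cells was sequenced. The authors deposited 1 table of FPKM values with 29483 genes and a column per library. Per the submitters' notes and the methods of the study, reads were filtered, aligned to GRCh38.p13 with HISAT2 2.1.0 and counted on genes with HTSeq 0.6.0, and the authors then scaled the counts to gene length and library size. The selection of RNA for the libraries, the strandedness of the counting, and the annotation version are not given in the sources used here.

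The FPKM values were divided by a median-of-ratios factor per library, and log2(value + 0.1) was taken. Genes whose mean FPKM reached 0.5 entered the test in R 4.3.3 with limma 3.58.1 (intensity trend, no covariate, case minus control), with Benjamini-Hochberg adjustment of the *P*-values across all 13599 of them and a threshold of 0.05. Intervals are at the 95% level. Log2 fold changes are on the log2(FPKM + 0.1) scale, which slightly understates changes of low genes. The study used DESeq2 on counts, which does not suit FPKM and was not run.

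Whole reads were recovered from the steps of the FPKM values for 13575 of the 13599 genes (99.8%), within 0.02 reads, 131 of them with the exon length of the annotation. Those of the tested genes summed to 16955258, 16327077, and 15846588 reads in control replicates 1, 2, and 3 and to 15038642, 14543368, and 13891283 in case replicates 1, 2, and 3. By this sum of recovered reads, every case library lay below every control library. They were tested with voom as an alternative. Other alternatives were pseudocounts of 1 and 0.01, other filters and scalings, a block for the replicate number, limma without trend or with robust estimation, and leaving out each replicate in turn. No molecular identifiers are named in the sources used here, so reads may count 1 molecule several times.

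The 10 enzymes and all lists were chosen with earlier results of these data known. Named are all 10 enzymes, each gene of a list past the threshold, both genes of each pair of paralogues, the most abundant gene of each list and the 5 genes most like the mean profile of the enzymes. *DHODH*, *UMPS*, *ADSS1*, *CDA*, *PRPSAP2*, *HPRT1*, *RRM1*, *DUT*, *NME1*, *TFE3*, and *MTHFD1* were named after their values were seen. Symbols were matched for 29063 genes by Ensembl identifier, and positions, lengths, and GC content were taken from GENCODE version 44 (GRCh38). *PRPS1L1*, *UOX*, *DPYS*, *MYCN*, *HNF4A*, *DCN*, *LUM*, *PDGFRA*, *PTPRC*, *CD3E*, and *HBB* were not analysed here. Each library was corrected for GC content and length by a loess fit (span 0.5) as an alternative added after the data were seen. The procedure was tested on simulated data.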

Additional observations from a re-analysis of the deposited data

How the results depend on the processing

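The number of genes past the threshold, 1792 as reported, was 524 without the filter on low values, 2764 with TPM, 852 without the intensity trend and 2797 with voom, and between 69 and 3495 when 1 replicate was left out. With the replicate block 1610 passed, and with the block and the correction for GC content and length 1565. The causes were not tested. Of the 10 enzymes, 0 passed without the filter and without the trend. With the filter raised to a mean FPKM of 1 and with voom 2 passed (*ADSL* and *CAD*), with TPM 2 (*PFAS* and *CAD*), and with the correction, alone or with the block, 2 (*ADSL* and *GMPS*). Leaving out 1 replicate gave 0 to 3. No enzyme passed without any 1 control replicate or without case replicate 3, *ADSL*, *GMPS*, and *CAD* passed without case replicate 1, and *ADSL* and *IMPDH2* without case replicate 2. The 6 lists of nucleotide routes held 6 (remaining de novo enzymes), 4 (PRPP supply), 10 (deoxynucleotide synthesis), 16 (salvage), 12 (kinases), and 12 (breakdown and interconversion) tested genes. Of these genes 7 passed, where 13.2% of all tested genes passed, and the difference was not tested. The count was 1 without the filter, 4 unscaled, 1 without the trend, 4 with the block, 13 with voom and 12 with the correction. It was 0 to 18 when 1 replicate was left out. Over all genes 1786 passed unscaled and 2559 of 13489 with the correction. Of the 20 genes of all lists and markers that passed, 15 passed unscaled, 13 with TPM and 14 after quantile normalization, 2, 0, and 1 passed without control replicates 1, 2, and 3, and 18, 20, and 3 without case replicates 1, 2, and 3, all with the same sign under the 3 scalings. In the other lists leaving out 1 replicate gave 0 to 6 calls in the serine and folate route, 0 to 1 in the pentose phosphate route, 0 to 6 among the regulators and 0 to 5 among the S phase genes, where no regulator and no S phase gene passed without any 1 control replicate or without case replicate 3.

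*ADSL* did not pass in 10 of 19 alternatives, with adjusted *P*-values from 0.0531 to 0.243 in limma, and kept its direction in all. The sign changed for 4 enzymes whose log2 fold change was at most 0.13 in size. *GART* had -0.12 with TPM and -0.024 after quantile normalization. *ATIC* had -0.065 and -0.0051 there. *PAICS* had -0.20 and -0.10 there, -0.076 unscaled and -0.0081 with the filter raised to 1, and ranged from -0.028 to 0.033 when 1 replicate was left out. *IMPDH1* had 0.010 without the filter, 0.033 with the correction, alone or with the block, and -0.090 to 0.083 when 1 replicate was left out. The pairing of equal replicate numbers was checked by the correlation of their deviations from the group means, which was 0.063, 0.0999, and -0.053 for numbers 1, 2, and 3, so that the numbers were not taken as pairs. With the replicate block *CAD* passed (adjusted *P*-value 0.0426 in limma) and *ADSL*, *PRPS2*, and *NT5C3A* did not (0.0535, 0.0520, and 0.0701 in limma). *SAMHD1*, *APRT*, *UCK2*, and *TALDO1* also lost their calls with the block (0.0733, 0.0582, 0.0637, and 0.0512 in limma). Of the 20 genes of all lists and markers, 14 passed with it. The log2 fold changes of these genes were the same with and without the block.

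Of the 10 enzymes *PPAT* had the fewest reads (451 to 705 per library). The shares of paralogue pairs kept their direction when 1 replicate was left out, except that of *CTPS1*, which ranged from -0.71 to 1.11 percentage points.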
